A study of Sus scrofa with 22 samples.

Results

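TFCP2L1, ESRRB, TBX3, NR5A2, NR0B1 and PRDM14 are transcription regulators of the naive state, the earliest form of pluripotency, and were followed through pig development from the oocyte to embryonic day 14 (E14). They were chosen by name, as the factors of that state outside the KLF family. They are 6 of the 25749 genes in the authors' tables of group means, and each was read in all 39 groups of cells. RNA with poly(A) tails was measured in single cells: 1458 cells in 20 embryo libraries (P1 to P20), and 93 and 96 cells in 2 libraries of pgEpiSC, pig epiblast stem cells. The labels give E10 epiblast as the origin of the pgEpiSC and call the libraries low and high, words they do not explain. No breed, genotype or treatment is named for any group, and the labels do not say which libraries came from separate embryos. The authors' groups are the stages Oocyte, Zygote, 2C, 4C, 8C (embryos of that many cells) and Morula_E4, and then lineages by day: ICM (inner cell mass), Epiblast, Ectoderm, Mesdoderm (spelled so in the tables), Endoderm, Defi_Endoderm, Hypoblast and TE (trophectoderm), with preICM_E5 and preTE_E5 as their first forms.

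In mouse embryonic stem cells these factors belong to the network that holds cells in self-renewal alongside POU5F1, SOX2 and NANOG, and most are lost as the epiblast matures after implantation. ESRRB, NR5A2 and NR0B1 are orphan nuclear receptors: ESRRB and NR5A2 bind DNA and activate pluripotency genes, while NR0B1 lacks the usual DNA-binding domain and acts mainly as a repressor of other receptors, NR5A2 among them. TFCP2L1 is a CP2-family factor downstream of LIF and STAT3, TBX3 is a T-box factor also active in extraembryonic endoderm, and PRDM14 is a zinc-finger protein that represses DNA methyltransferase and FGF receptor genes and acts in the germ line.

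In the build Sscrofa11.1, all 6 are annotated as protein-coding. ESRRB (ENSSSCG00000002388) lies on chromosome 7 from 99511135 to 99699478. NR5A2 (ENSSSCG00000024975) lies on chromosome 10 from 22727865 to 22866905. NR0B1 (ENSSSCG00000012199) is X-linked, from 26117874 to 26122951. TFCP2L1 (ENSSSCG00000015732) lies on chromosome 15 from 30072142 to 30131810. TBX3 (ENSSSCG00000009865) lies on chromosome 14 from 37582704 to 37596767. PRDM14 (ENSSSCG00000006195) lies on chromosome 4 from 65273988 to 65295362.

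The median cell held 274531 counts from 9120 genes, and totals per library ran from 7415760 to 39405309 counts. Cells were assigned to the authors' groups from the deposited means, and the counts of a group's cells in each library were added. Such a sum, as counts scaled to a total of 1000000 (CPM), is the sample of every test, so a lower value can mean fewer expressing cells or less RNA per cell, which cannot be told apart in it. The p-values measure the spread between sums and may be too small where cells of the same embryo, or genes used to define the groups, are involved. The sources used here do not say how the authors defined their groups. Most stages were in different libraries, so stage and library cannot be told apart in most steps. Libraries P13 and P19 stood apart: the 12 oocyte markers summed to 159 CPM in Ectoderm_E14 cells of P13, against 4.75 in P11 and 10.1 in P12, and to 190 CPM in Ectoderm_E13 cells of P19, against 4.31 in P18. Both of those libraries also held cleavage-stage cells.

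The authors' deposited level of a gene in a group is the mean over cells of log2(CPM/10 + 1). On that scale the members peaked in different places. ESRRB was highest in Morula_E4, at 4.27 ± 0.66 (SD over 30 cells), and TBX3 also in Morula_E4, at 5.31 ± 0.63. By CPM of the summed counts ESRRB was instead highest in TE_E9, at 223.2 CPM from 2 cells of which 1 had counts, against 207.3 and 202.2 in Morula_E4. NR5A2 was highest in 4C, at 4.01 ± 2.36 (SD over 23 cells), and NR0B1 in the Oocyte, at 2.74 ± 0.72 (SD over 4 cells). PRDM14 was highest in Epiblast_E9, at 1.76 ± 1.31 (SD over 7 cells), and TFCP2L1 in TE_E14, at 4.04 ± 1.32 (SD over 11 cells). When the 39 groups were ordered by level, no group differed from the next by more than the larger of their SDs, except NR0B1 between Oocyte and Zygote (a gap of 1.57, or 1.99 times the larger SD). With 39 groups in an order, neighbours lie close, so this does not show how far groups or cells differed.

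**Figure D1:**
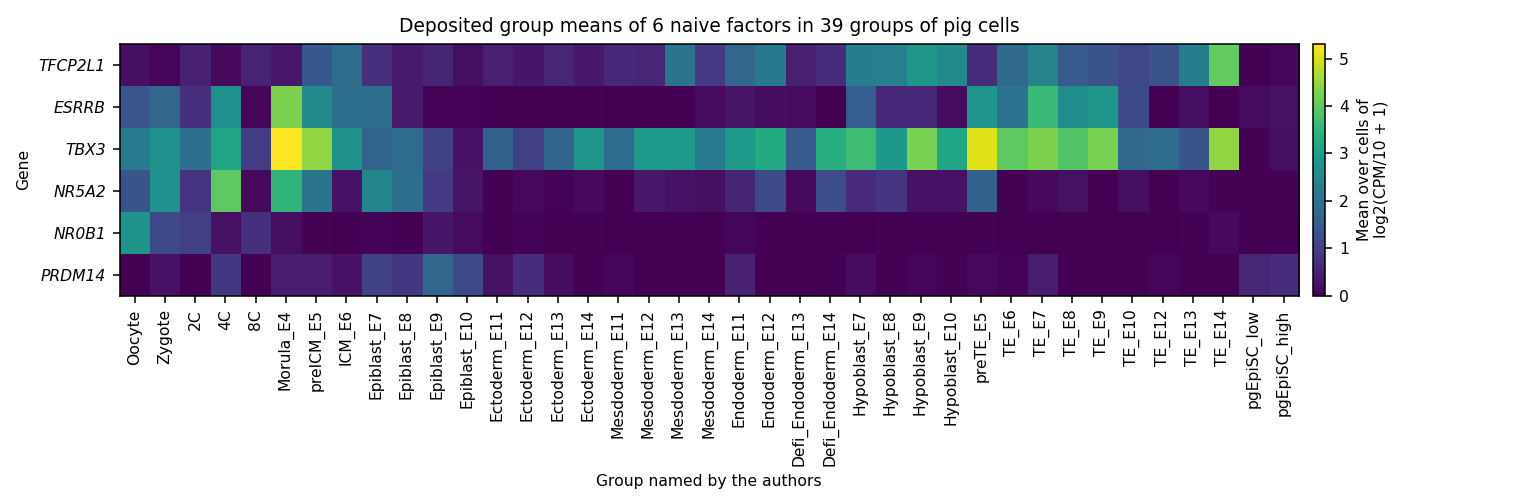
Deposited mean over cells of log2(CPM/10 + 1), shown by colour, for each of the 6 factors (rows) in the 39 groups (columns). TBX3 was at 1 or more in 35 groups, whereas PRDM14 reached 1 in 3 groups, all of them epiblast, and NR0B1 in 2, the Oocyte and the Zygote.

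The breadth of expression differed as much as the peaks. TBX3 was at a level of at least 1 in 35 groups, TFCP2L1 in 17, ESRRB in 14, NR5A2 in 10, PRDM14 in 3 and NR0B1 in 2. Of the 1647 cells, 82.6% had a count of TBX3, 57.6% of TFCP2L1, 35.9% of ESRRB, 30.1% of NR5A2, 22.0% of PRDM14 and 7.89% of NR0B1. These shares also depend on transcript length and depth and do not rank the genes by level. NR0B1 was listed at 0 in 16 groups, PRDM14 in 7, ESRRB in 6 and NR5A2 in 2, and the other two in none.

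The members did not vary as one set across the 39 groups. As a description over group means, Pearson's r was 0.65 for ESRRB with TBX3, 0.53 for ESRRB with NR5A2 and 0.51 for TFCP2L1 with TBX3. It was 0.03 for TFCP2L1 with ESRRB, -0.37 for TFCP2L1 with PRDM14 and -0.38 for TBX3 with PRDM14. Groups of the same library or lineage are not independent points, so no test was made.

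Genes with the most similar pattern, by the same measure among 8940 genes, differed from member to member. Those nearest to ESRRB were NAT8L (r = 0.90), SLC28A3 (0.88), TMEM86A (0.88), TFEB (0.87) and SOAT1 (0.87). The pattern of NR5A2 was nearest to that of KLF17 (r = 0.88), a KLF factor of the naive state, and MPC1L (0.86), STUM (0.84) and PPP1R9B (0.84) were among the next. NR0B1 was nearest to LGI1 (r = 0.98), CRYBB3 (0.98), ANKRD40CL (0.97), FIGLA (0.96), an oocyte transcription factor, and CLPS (0.96). Among those nearest to TBX3 were GATA6 (r = 0.81), a hypoblast factor, CDC42EP1 (0.79), PPP2R5A (0.79) and LASP1 (0.74). PRDM14 had LPCAT2 (r = 0.84), RASSF5 (0.83), LRAT (0.83), SOX2 (0.82) and C20orf96 (0.80) nearest to it. For TFCP2L1 they were ACP4 (r = 0.80), WWC3 (0.80), TMEM214 (0.80), PLEKHF1 (0.78) and DNASE1L1 (0.77).

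In cleavage, the question was which factors come from the oocyte and which appear in the embryo. NR0B1 was at 85.9 CPM in the Oocyte, 19.8 in the Zygote, 9.70 and 14.2 in the 2C sums, 1.48 and 14.8 in 4C, and 10.3 and 10.2 in 8C. Its Morula_E4 sums were 1.86 and 0.763 CPM, and both ICM_E6 sums held no count. The Oocyte was the highest sum of this factor, and the 4C sum of P1 was as low as those of the morula. With 1 library each for Oocyte and Zygote there was no test of these steps, and no later cleavage step of NR0B1 passed the test.

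ESRRB and NR5A2 were present before cleavage and high at 4C in a single library. ESRRB was at 12.2 CPM in the Oocyte, 23.2 in the Zygote, and 8.35 and 3.31 in 2C. In 4C it reached 119 CPM in P1 but 3.06 in P13, and in 8C it was 0.343 and 0.894. NR5A2 was at 10.98 CPM in the Oocyte, 51.5 in the Zygote, and 11.3 and 0 in 2C; in 4C it was at 388 CPM in P1 and 4.59 in P13, and in 8C at 2.83 and 1.30. All 17 of the P1 cells of 4C had counts of both genes, against 3 (ESRRB) and 1 (NR5A2) of the 6 P13 cells. PRDM14 followed the same division, with 15.8 CPM in P1 and no count in P13.

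Of the 6 factors, NR5A2 alone rose from 2C to 4C by the test, by 5.26 ± 1.54 (log2, SE; edgeR's quasi-likelihood test, Benjamini-Hochberg adjusted p = 0.033), where 4.65% of the 23182 genes tested passed the threshold of 0.05. ESRRB was 3.63 ± 1.21 higher (edgeR adjusted p = 0.0787) and did not pass. Without P1 each group was left with a single sum, from P13. In P13 NR5A2 had 9 counts, all in 1 of the 6 cells of 4C, and 0 in the 2 cells of 2C. NR5A2 was 7.82 higher in that fit, a value that rests on this 1 cell. Its call was lost there as were those of all genes, so the loss is not particular to NR5A2.

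From 4C to 8C the factors that had been high in P1 were lower, and 4 of 6 passed, where 11.8% of genes did. ESRRB fell by 6.03 ± 1.35 (edgeR adjusted p = 0.00134), NR5A2 fell by 6.24 ± 1.6 (edgeR adjusted p = 0.00553) and TBX3 fell by 1.90 ± 0.59 (edgeR adjusted p = 0.0255). TFCP2L1 rose by 3.86 ± 1.31 (edgeR adjusted p = 0.0442), from 0.590 and 0.510 CPM to 7.11 and 5.03. Its 4C sums held only 4 counts in P1 and 1 in P13. In 2C it had been at 5.64 and 3.31 CPM, near its 8C values. The 3 decreases rested on P1: without it, with a single 4C sum left, the changes were -1.42 for ESRRB, -0.52 for NR5A2 and -0.57 for TBX3. TFCP2L1 was 4.20 higher without P1, 3.88 without P13 and 3.87 without P20. Each of these left a single sum in a group, and its call was lost in each. It was also lost with DESeq2's size factors (3.95, edgeR adjusted p = 0.0519). Without P1 or P20 fewer of all genes passed as well.

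**Figure D2:**
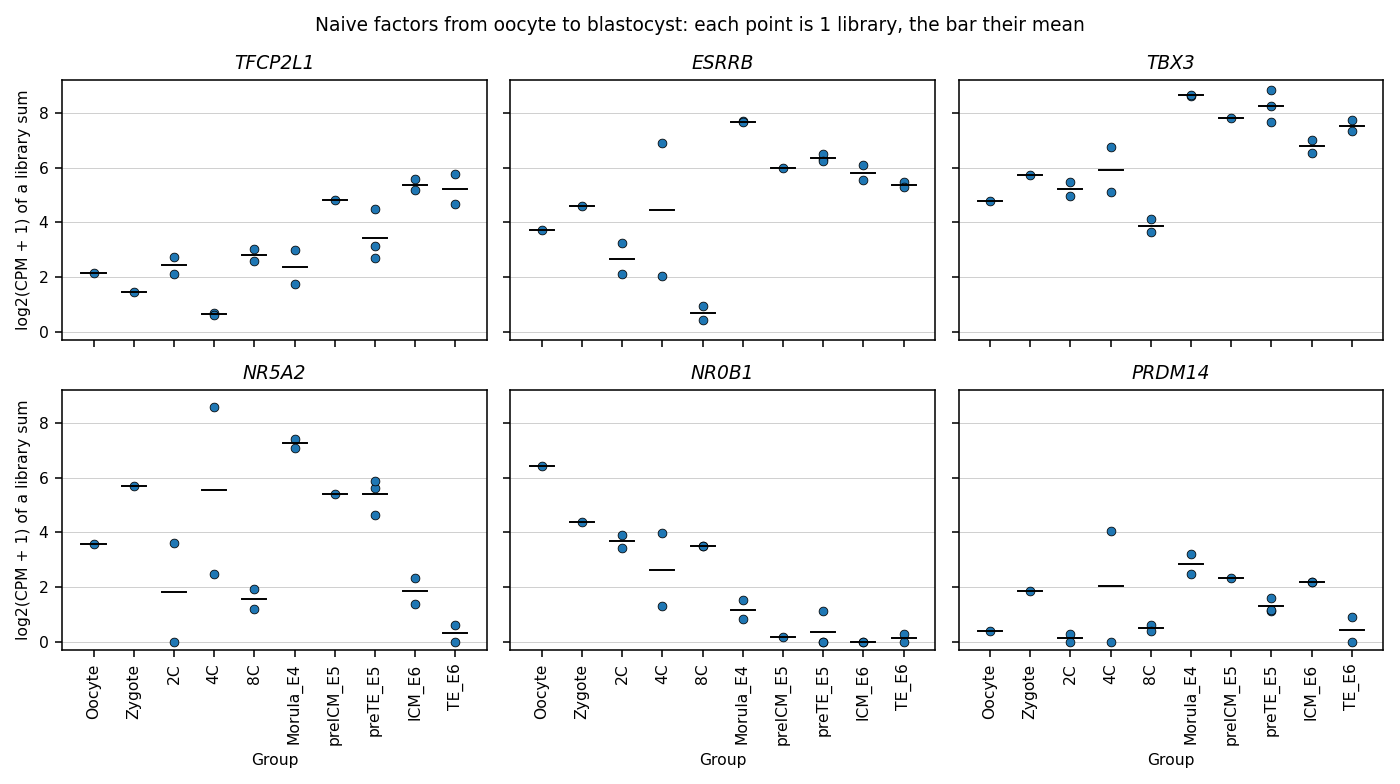
log2(CPM + 1) of each library sum (points) and their mean (bar) from Oocyte to the E6 blastocyst, 1 panel per factor. The 2 points of 4C stand far apart for ESRRB (119 and 3.06 CPM) and NR5A2 (388 and 4.59 CPM), and those of Morula_E4 lie together.

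At the morula ESRRB, NR5A2 and TBX3 were high in both libraries. ESRRB was at 207 and 202 CPM, NR5A2 at 172 and 137, and TBX3 at 398 and 401, against 16.4 and 11.5 CPM for TBX3 in 8C. The Morula_E4 and 8C sums of these 3 genes did not overlap, with few sums a group and no count of this over all genes. Each rose by the test: ESRRB by 7.87 ± 1.46 (edgeR adjusted p = 3.3e-05), NR5A2 by 5.98 ± 1.59 (edgeR adjusted p = 0.003) and TBX3 by 4.56 ± 0.66 (edgeR adjusted p = 3.54e-07). This is 3 of 6 factors, where 30.4% of all genes changed at this step. TFCP2L1 was -0.83 ± 1.10 different and PRDM14 3.69 ± 1.52 higher (edgeR adjusted p = 0.0603), neither past the threshold. Without P20, which left a single 8C sum, the rise of NR5A2 was 5.69 and missed the threshold, and fewer of all genes passed.

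Among 14 tested genes of a list of KLF and other naive genes, 3 rose and 4 fell at the same step. KLF4, a Krüppel-like factor, rose by 4.30 ± 0.92 and SOCS3, a target of STAT3, by 5.67 ± 1.47, while TCL1A, an AKT co-activator, fell by 9.07 ± 3.10 and DPPA5, an RNA-binding protein, fell by 2.99 ± 0.71. The list's median was -0.78 and that of all genes 0.00.

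In the first blastocyst cells at E5 the 3 genes stayed in both branches. TBX3 was at 225 CPM in the single preICM_E5 sum and at 461, 307 and 201 in the preTE_E5 sums. ESRRB was at 63.1 CPM in preICM_E5 and at 78.5, 88.6 and 75.2 in preTE_E5. No factor passed between Morula_E4 and preTE_E5 (0 of 6, with 0.0518% of genes passing; 0 at an unadjusted p under 0.05, and 0 by DESeq2).

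NR5A2 separated from the other factors at E6. Its preTE_E5 sums were 24.2, 48.9 and 58.5 CPM, and its TE_E6 sums 0.541 and 0, with a count in 9 of 57 cells of P14 and in 0 of 18 cells of P15. It fell by 6.43 ± 1.66 (edgeR adjusted p = 0.013), the only one of 6 factors called, where 5.38% of genes passed. P14 held both stages, and within it NR5A2 was at 58.5 CPM in preTE_E5 and 0.541 in TE_E6. Leaving out P14 or P15 left a single TE_E6 sum and ended the call, at -11.05 and -5.88, and fewer of all genes passed.

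In the same days NR5A2 was also low in the inner cell mass. It was at 42.0 CPM in preICM_E5, in 33 of 34 cells, and at 1.603 and 4.04 CPM in ICM_E6, in 3 of 32 cells. In Epiblast_E7 it was at 74.0 and 68.5 CPM, in 31 of 35 cells. The order of these 3 groups was high, low, high, in every sum. From ICM_E6 to Epiblast_E7 the difference was 4.72 ± 1.55 (edgeR adjusted p = 0.103), which did not pass. DESeq2 called 2 of the 6 factors at this step and edgeR 0, with 3 at an unadjusted p under 0.05, and 2.03% of genes passed.

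The values of ESRRB and TBX3 had no such gap. ESRRB was at 45.6 and 67.8 CPM in ICM_E6 and at 35.0 and 44.9 in Epiblast_E7. TBX3 was at 92.6 and 128 CPM in ICM_E6 and at 21.1 and 31.9 in Epiblast_E7, a difference of -2.05 ± 0.60 that narrowly missed the threshold (edgeR adjusted p = 0.0567). Between the inner cell mass and trophectoderm of the same 3 libraries (P2, P14 and P15) 0 of 5 factors tested passed, and 0.0% of genes. DESeq2 called 1 factor, TBX3, and 927 genes, and 1 factor and 1602 genes had an unadjusted p under 0.05. TBX3 was -0.88 ± 0.17 different, lower in the inner cell mass (edgeR adjusted p = 0.153).

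In the epiblast, the fate of each factor from E7 to E10 differed. ESRRB was at 35.0 and 44.9 CPM at E7, 5.86 and 1.36 at E8, 0.465 at E9, and 0.523 and 0.443 at E10. NR5A2 went from 74.0 and 68.5 CPM through 29.3 and 67.1 and then 10.2 to 2.25 and 4.80. TBX3 was at 21.1 and 31.9, then 33.8 and 29.0, then 9.76, then 1.63 and 3.71 CPM. The E7 and E10 sums of these 3 genes did not overlap, with few sums a group. How many of all genes had no overlap was not counted.

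PRDM14 and NR0B1 did not follow them. PRDM14 was at 13.9 and 24.8 CPM at E7, 18.9 and 10.4 at E8, 30.4 at E9, and 21.5 and 16.7 at E10, and the ranges of E7, E8 and E10 overlapped. NR0B1 had no count in the 15 cells of Epiblast_E8, 5.34 CPM at E9 and 3.75 and 1.53 CPM at E10, where 15 of 97 cells had a count. TFCP2L1 was at 13.2 and 7.70 CPM at E7 and at 1.14 and 3.34 at E10.

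The single step from E7 to E8 had no call (0 of 6 factors, with 0.669% of genes passing, 1 factor at an unadjusted p under 0.05, and 0 by DESeq2). The comparison of E10 with E7 was added after these values had been seen. In it ESRRB fell by 6.70 ± 1.39 (edgeR adjusted p = 0.00271) and TBX3 fell by 3.69 ± 0.64 (edgeR adjusted p = 0.000461). These were 2 of 6 factors, and 3.79% of genes passed. NR5A2 was -4.70 ± 1.49 different (edgeR adjusted p = 0.061), TFCP2L1 -2.57 ± 1.06 (edgeR adjusted p = 0.170) and PRDM14 -0.41 ± 1.34 (edgeR adjusted p = 0.952). The call of ESRRB was lost without P15 (-6.78) or P16 (-6.63), where a single Epiblast_E10 sum was left and fewer of all genes passed.

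**Figure D3:**
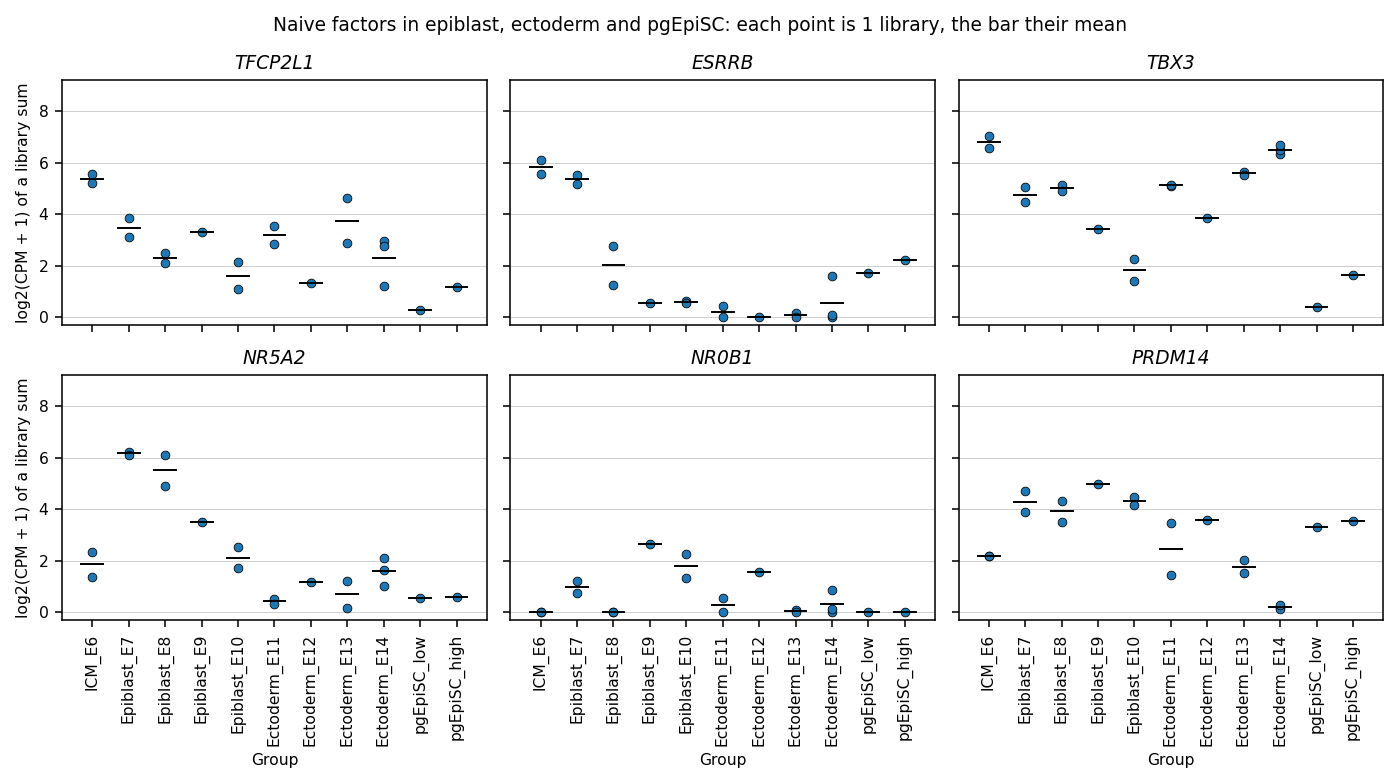
log2(CPM + 1) of each library sum (points) and their mean (bar) in inner cell mass, epiblast, ectoderm and pgEpiSC, 1 panel per factor. ESRRB and NR5A2 were low by Epiblast_E10, PRDM14 was between 10.4 and 30.4 CPM from E7 to E10, and TBX3 was higher again in Ectoderm.

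Few other naive genes passed over the same days, and those that did fell. Of the 14 tested from the list of KLF and other naive genes, 2 fell between Epiblast_E7 and Epiblast_E10, KLF17 (-6.56 ± 1.63) and KLF2 (-6.12 ± 1.41), and none rose. Its median was -0.99 and that of all genes 0.22. SPIC, an ETS-family factor on the list of partners and targets, fell by 5.78 ± 1.10, the only call among 12 tested genes of that list. The 12 epiblast markers, which include PRDM14, had 2 that rose, NODAL by 5.98 ± 1.31 and ETV5 by 4.46 ± 1.19.

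Markers of hypoblast were also lower in Epiblast_E10 than in Epiblast_E7. The 15 hypoblast markers summed to 1695 and 1604 CPM in Epiblast_E7, 2046 and 2282 in Epiblast_E8, 1292 in Epiblast_E9, and 118 and 520 in Epiblast_E10, against 6071 to 7784 in hypoblast sums of E7 and E8. In Epiblast_E7, 1 of the 15 was at 0 in each sum, and 4 of 15 fell between E7 and E10, among them GATA6 (-3.83 ± 0.71). Within libraries, ESRRB was lower in hypoblast than in epiblast at E7 (22.7 against 35.0 CPM in P8, and 39.4 against 44.9 in P9). At E8 it was higher in hypoblast (11.5 against 5.86 CPM in P4, and 4.36 against 1.36 in P5). TBX3 was higher in hypoblast in each of these libraries, as at E7 (116.4 against 21.1 CPM in P8, and 147.6 against 31.9 in P9). The part of hypoblast RNA in the changes from E7 to E10 was not tested.

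After E10, TBX3 returned in the ectoderm. It was at 1.63 and 3.71 CPM in Epiblast_E10, 33.4 and 34.0 in Ectoderm_E11, 13.5 in E12, 49.3 and 44.6 in E13, and 80.0, 88.6 and 103 in E14. It was 3.95 ± 0.65 higher in Ectoderm_E11 than in Epiblast_E10 (edgeR adjusted p = 0.000647), 1 of 6 factors where 0.173% of genes passed. The call was lost without P15 (3.45 higher), where a single Epiblast_E10 sum was left and fewer of all genes passed. It was also lost with the library as a block (3.85, edgeR adjusted p = 0.132), where 10 genes passed in place of 40. Of the hypoblast markers 5 of 15 rose at the same step, among them GATA6 by 4.91 ± 0.74, and their sum was 1689 and 488 CPM in Ectoderm_E11. Their part in the rise of TBX3 was not tested.

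ESRRB and NR5A2 stayed low in the ectoderm. ESRRB was at 0 or at most 0.341 CPM in 7 of the 8 sums from E11 to E14, and at 2.04 CPM in Ectoderm_E14 of P13, the library with 159 CPM of oocyte markers there. NR5A2 was between 0.122 and 3.31 CPM in the 8 sums. The part of RNA from other cells of P13 was not tested.

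PRDM14 was still present in the early ectoderm. It was at 1.72 and 10.0 CPM in Ectoderm_E11, 10.95 in E12, 3.11 and 1.83 in E13, and 0.144, 0.0864 and 0.204 in E14. A count was present in 14 of 26 cells at E12 and in 3 of 123 cells at E14, at median depths of 295706 and 265703 counts per cell. The E14 sums lay below all earlier ectoderm sums, which was not counted over all genes, and they rest on these 3 cells. The step from E13 to E14 was -4.13 ± 1.42 (edgeR adjusted p = 0.295), not past the threshold. None of the 6 factors passed there, with 0.285% of genes passing, 1 factor at an unadjusted p under 0.05 and 0 by DESeq2. Of the 12 epiblast markers 6 fell at this step, among them TDGF1, a co-receptor of NODAL (-9.38 ± 1.35), and NANOG (-6.52 ± 1.22).

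In mesoderm and endoderm, TFCP2L1 and TBX3 were detected in nearly all sums. TBX3 was between 35.3 and 131 CPM in the mesoderm sums with at least 5 cells, and TFCP2L1 between 1.34 and 147.5. TFCP2L1 divided the Mesdoderm_E13 cells by library, at 147.5 CPM with a count in 10 of 10 cells of P18, and at 1.34 CPM with a count in 4 of 10 cells of P19. TBX3 was at 131 and 45.4 CPM in the same sums. The oocyte markers summed to 5.67 CPM in those P18 cells and to 196 in those of P19, and their part was not tested.

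Within the 6 libraries that held both, neither TFCP2L1 (1.30 ± 0.67, edgeR adjusted p = 0.336) nor TBX3 (0.59 ± 0.47, edgeR adjusted p = 0.552) differed between mesoderm and ectoderm beyond the spread, and the other 4 were too low to test. This is 0 of 2, at 0 by DESeq2 and 0 at an unadjusted p under 0.05, where 3.62% of genes passed. Definitive endoderm against ectoderm had 0 of 3 (1.02% of genes, 0 factors at an unadjusted p under 0.05 and 0 by DESeq2), and Mesdoderm_E14 against Mesdoderm_E13 had 0 of 6 factors and 0.0% of genes, with 1893 genes at an unadjusted p under 0.05 and 193 genes by DESeq2. NR5A2 was at 28.9 CPM in Defi_Endoderm_E14 of P11, with a count in 7 of 13 cells, and at 22.2 CPM in Endoderm_E12.

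Lineages were then compared within libraries, to ask in which cells of a day each factor lay. In the 6 libraries that held epiblast and hypoblast cells of the same day (106 and 270 cells), 4 of the 5 factors tested passed, where 22.5% of genes did. PRDM14 was 5.30 ± 0.66 higher in epiblast (edgeR adjusted p = 0.00016) and NR5A2 1.69 ± 0.38 higher (edgeR adjusted p = 0.00756). TFCP2L1 was lower in epiblast, by -3.34 ± 0.39 (edgeR adjusted p = 0.000103), and TBX3 by -2.69 ± 0.48 (edgeR adjusted p = 0.00205). ESRRB did not pass (-0.69 ± 0.56, edgeR adjusted p = 0.421), and NR0B1 was too low to test.

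All 6 libraries showed each of the 4 called directions. TFCP2L1 lay between 3.25 and 13.2 CPM in the epiblast sums and between 44.8 and 90 in the hypoblast sums, with no overlap. PRDM14 lay between 10.4 and 30.4 CPM in epiblast and between 0.109 and 4.16 in hypoblast, again with no overlap. The share of all genes without overlap was not counted. TBX3 was at 3.71 to 33.8 CPM in epiblast and 62.7 to 191 in hypoblast. The NR5A2 sums overlapped between libraries, and without the library block its difference missed the threshold (edgeR adjusted p = 0.0886).

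**Figure D4:**
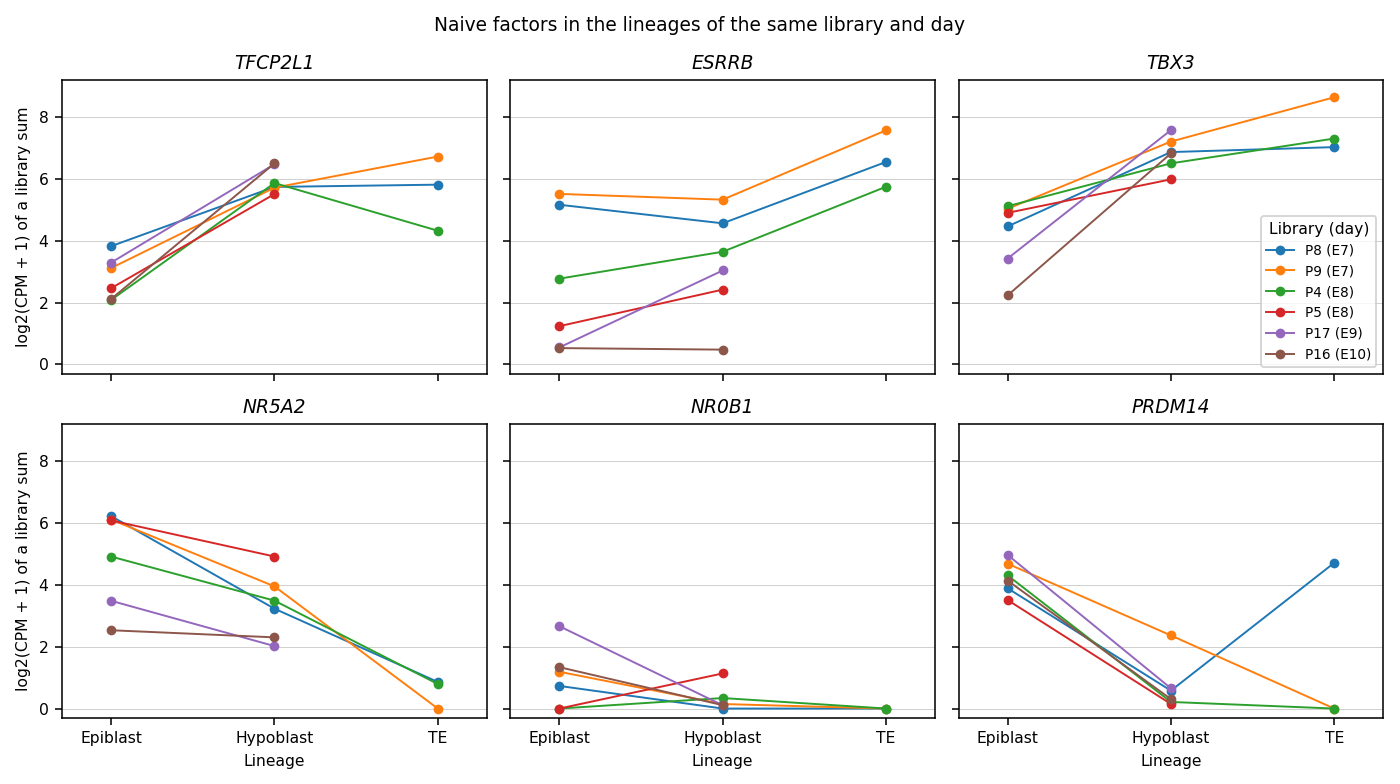
log2(CPM + 1) of the sums of epiblast, hypoblast and trophectoderm cells, with lines joining the sums of the same library and day. TFCP2L1 and TBX3 rise from epiblast to hypoblast in all 6 libraries, PRDM14 and NR5A2 fall in all 6, and ESRRB has lines in both directions.

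The list of KLF and other naive genes was divided in the same way. Of 12 tested, FGF4, a growth factor secreted by epiblast, was 5.03 ± 0.64 higher in epiblast, KLF17 3.61 ± 0.45 and DPPA5 1.43 ± 0.40 higher, and 2 genes were lower, KLF5 by -1.56 ± 0.18. The list's median was -0.32 and that of all genes -0.03. All 14 hypoblast markers tested were lower in epiblast and 10 of the 12 epiblast markers, PRDM14 included, were higher. Such markers may have defined the groups, so this is no independent check of their names.

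Against trophectoderm, ESRRB joined the factors that were lower in epiblast. In the 3 libraries with both lineages (42 epiblast and 28 trophectoderm cells), ESRRB was at 35.0, 44.9 and 5.86 CPM in epiblast and at 93.0, 190 and 52.9 CPM in trophectoderm. It was lower in epiblast in each library, by -2.15 ± 0.57 (edgeR adjusted p = 0.013). TBX3 (-2.83 ± 0.51, edgeR adjusted p = 0.000415) and TFCP2L1 (-2.79 ± 0.76, edgeR adjusted p = 0.0157) were also lower. NR5A2 was 6.13 ± 1.00 higher in epiblast (edgeR adjusted p = 0.000115), at 74.0, 68.5 and 29.3 CPM against 0.816, 0 and 0.735.

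These are 4 of 5 factors tested, where 10.4% of genes passed. The calls of ESRRB and TFCP2L1 were lost when any 1 of the 3 libraries was left out, and those of TBX3 and NR5A2 were not. Fewer of all genes passed in each of those fits. PRDM14 was 3.24 ± 1.6 higher (edgeR adjusted p = 0.236). Its trophectoderm value came from 2 of 9 cells of TE_E7 in P8, at 25.3 CPM, and the P9 and P4 sums had no count. KLF17 (6.53 ± 0.95) and KLF2 (3.89 ± 0.83) were higher in epiblast among 8 tested genes of the KLF list, and none was lower. Of the 13 trophectoderm markers tested, 11 were lower in epiblast, again no independent check of the group names.

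Across extraembryonic time, ESRRB declined in both lineages. In hypoblast it was at 22.7 and 39.4 CPM at E7, 9.86, 11.5 and 4.36 at E8, 7.23 at E9, and 4.18, 1.67 and 0.394 at E10. The E7 and E10 sums did not overlap, which was not counted over all genes. In the comparison of E10 with E7, added after the values had been seen, ESRRB fell by 4.12 ± 1.05 (edgeR adjusted p = 0.033), 1 of 6 factors where 1.16% of genes passed. Leaving out P5, P6, P8, P9 or P16 alone ended the call, and fewer of all genes passed in each of these fits. Single hypoblast steps had 0 of 6 calls at E7 against ICM_E6 (1.11% of genes, 0 factors at an unadjusted p under 0.05) and at E8 against E7 (0.246% of genes, 1 factor at an unadjusted p under 0.05), with 0 by DESeq2 in both.

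No change of TFCP2L1 or TBX3 was detected in hypoblast. TFCP2L1 was between 44.0 and 57.6 CPM in the 5 sums of E7 and E8 and between 58.8 and 90 in the 4 sums of E9 and E10. TBX3 was between 62.7 and 191 CPM in the 9 hypoblast sums. Their differences between E10 and E7 were 0.37 ± 0.89 and -0.46 ± 0.51, neither past the threshold (edgeR adjusted p = 0.938 and 0.762).

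In trophectoderm ESRRB was high early and at or near 0 late. It was at 43.1 and 37.9 CPM in TE_E6, 93.0 and 190 in TE_E7, 78.2 and 52.9 in TE_E8 (sums with at least 5 cells), and 32.9 and 11.08 in TE_E10. No count was found in the 9 cells of TE_E12, in 26 of the 34 cells of TE_E13 that came from P10, P18 and P19, or in the 11 cells of TE_E14. The remaining 8 cells of TE_E13, from P9, had 10.2 CPM, and P9 also held the TE_E7 cells with 190 CPM.

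TE_E13 against TE_E8 was likewise added after seeing the values. ESRRB fell by 4.36 ± 1.01 (edgeR adjusted p = 0.0057) and TBX3 fell by 2.16 ± 0.49 (edgeR adjusted p = 0.00485), 2 of 6 factors where 3.96% of genes passed. TBX3 was at 154 and 158 CPM in TE_E8 and at 45.2, 57.3, 20.3 and 16.1 in TE_E13. The ESRRB call was lost without P3 (-4.15) and the TBX3 call without P4 (-2.17). In both fits a single TE_E8 sum was left and fewer of all genes passed. In the single sum of TE_E14 with at least 5 cells TBX3 was at 263 CPM, above every TE_E13 sum, with no test for 1 library.

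**Figure D5:**
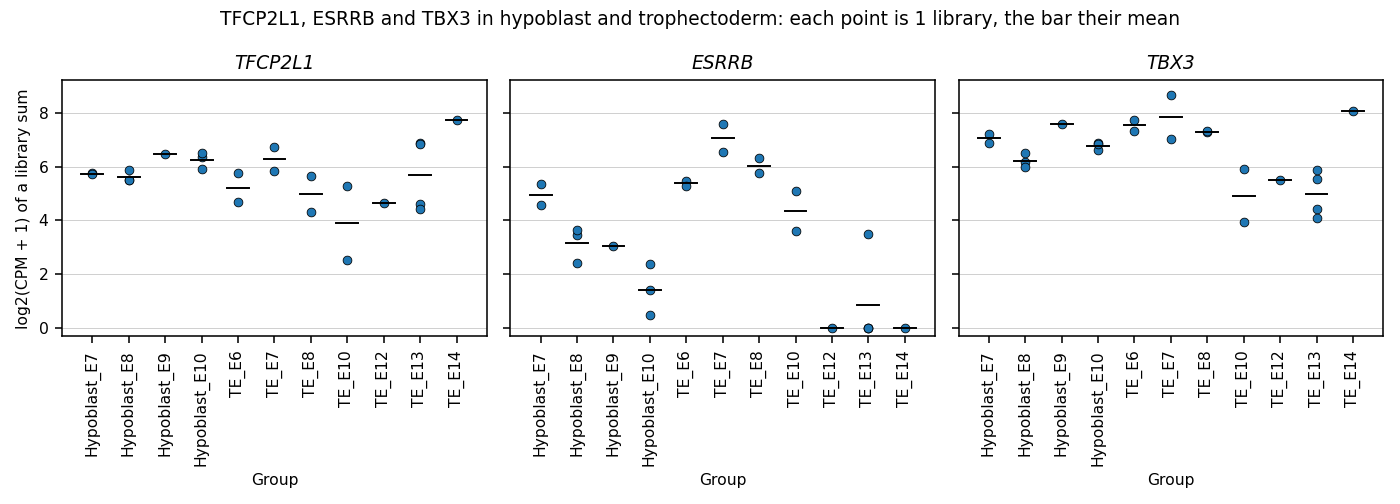
log2(CPM + 1) of each library sum (points) and their mean (bar) of TFCP2L1, ESRRB and TBX3 in hypoblast (E7 to E10) and trophectoderm (E6 to E14). ESRRB goes from 190 CPM or less at TE_E7 to 0 in TE_E12, TE_E14 and 3 of the 4 TE_E13 sums, while TFCP2L1 reaches 213 CPM in the single TE_E14 sum.

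TFCP2L1 was the factor with its highest group late in trophectoderm. It was at 53.3 and 24.4 CPM in TE_E6, 55.5 and 105 in TE_E7, 49.5 and 19.1 in TE_E8, 37.5 and 4.75 in TE_E10, and 23.9 in TE_E12. In TE_E13 it was at 23.5 and 20.6 CPM in P9 and P10 and at 117 and 113 in P18 and P19. In TE_E14 it was at 213 CPM in 10 cells of P12, and at 3.66 CPM in the 1 cell of P11. The highest group thus rested on 1 library, with no test. The sums of TE_E8 and TE_E13 overlapped, and the difference was 1.08 ± 0.90 (edgeR adjusted p = 0.605).

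Single trophectoderm steps after E6 had no call of 6 factors. At TE_E7 against TE_E6, 0.867% of genes passed, DESeq2 called 1 factor, PRDM14, and 1 factor had an unadjusted p under 0.05. At TE_E8 against TE_E7, 0.0561% of genes passed, with 1 factor at an unadjusted p under 0.05 and 1 by DESeq2, again PRDM14, whose counts in TE_E7 came from 2 cells. At TE_E10 against TE_E8, 0.151% of genes passed, and TBX3, at -2.24 ± 0.61, was called by DESeq2 and not by edgeR (adjusted p = 0.186), the 1 factor at an unadjusted p under 0.05.

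The pgEpiSC were compared with Epiblast_E10, the tissue the labels name as their origin. For this test the low and high libraries were taken as 2 samples of a single group. Any difference between low and high is therefore counted as spread in its SEs and p-values. PRDM14 was at 8.84 CPM in the low and 10.6 CPM in the high library, against 21.5 and 16.7 in Epiblast_E10, a difference of -0.75 ± 1.34 (edgeR adjusted p = 0.991). It had a count in 34 of 93 and 48 of 96 cells, or 36.6% (95% Clopper-Pearson interval 26.8 to 47.2) and 50.0% (39.6 to 60.4). In Epiblast_E10 79.4% of cells had one, and after thinning to 50000 counts the shares were 22.2% and 30.4% in pgEpiSC and 51.1% in Epiblast_E10. In Ectoderm_E14 2.44% of cells had one, at a median depth of 265703 counts against 136321 and 169412 in pgEpiSC. Intervals of this kind cover counting error only.

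ESRRB was at 2.23 and 3.65 CPM in pgEpiSC, both above 0.523 and 0.443 in Epiblast_E10. How many of all genes had no overlap between these few sums was not counted. The difference was 2.78 ± 1.19 (edgeR adjusted p = 0.479) and did not pass. A count was present in 9.68% and 20.8% of the pgEpiSC and in 15.5% of Epiblast_E10 cells, whose median depth was 600400 counts. In Mesdoderm_E11, at a median depth of 300880, 0 of 33 cells had one, which allows up to 9.09% of cells with a count at this depth and does not limit the share that express the gene. Thinned to 50000 counts per cell, which left out 12, 4 and 3 shallower cells, the shares were 8.64% and 13.04% in pgEpiSC and 4.26% in Epiblast_E10.

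NR0B1 had no count in either pgEpiSC library. This was 0 of 93 and 0 of 96 cells, which allows up to 3.23% and 3.13% of cells with a count at these depths and does not limit the share that express it. In Epiblast_E10 15.5% of cells had a count (7.45% after thinning). TBX3 was at 0.297 CPM in low and 2.10 in high, NR5A2 at 0.446 and 0.500, and TFCP2L1 at 0.223 and 1.25. The differences from Epiblast_E10 were -0.89 ± 0.63 for TBX3, -2.65 ± 1.43 for NR5A2 and -1.35 ± 1.06 for TFCP2L1 (edgeR adjusted p = 0.758, 0.616 and 0.821).

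In all, 0 of 6 factors passed between pgEpiSC and Epiblast_E10, where 0.358% of genes did, with 2 factors at an unadjusted p under 0.05 and 0 by DESeq2. Library and cell source cannot be told apart here, and a difference that misses the threshold does not show that the levels were alike. Among 14 tested genes of the KLF list, DPPA5 fell by 5.48 ± 0.86 and none rose, and the list's median was -0.29 against 0.00 for all genes. No epiblast marker of 12 passed.

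With 1 library each, low and high pgEpiSC were compared without a test. The exact Poisson intervals at 95% of TBX3 (0.0809 to 0.760 CPM in low, 1.51 to 2.84 in high) and TFCP2L1 (0.0459 to 0.651 and 0.808 to 1.84) did not overlap. Those of ESRRB (1.503 to 3.18 and 2.86 to 4.59), PRDM14 (7.32 to 10.6 and 9.26 to 12.2) and NR5A2 (0.164 to 0.970 and 0.240 to 0.919) did. Both TBX3 and TFCP2L1 were higher in the high library by these intervals, with no measure of the spread between cultures. Such intervals take counts as independent and may be too narrow where few cells hold them. In high, TFCP2L1 had 25 counts in 10 of 96 cells and TBX3 42 counts in 21 cells. In low they had 3 and 4 counts.

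The number of factors with a count in the same cell is given as a description. At least 3 of the 6 had a count in 100% of the 30 Morula_E4 cells, 94.1% of preICM_E5, 65.6% of ICM_E6, 85.7% of Epiblast_E7 and 39.2% of Epiblast_E10. After thinning to 50000 counts the shares were 93.3%, 81.8%, 50.0%, 63.6% and 4.26%. Such shares were not particular to the inner cell mass and epiblast. Before thinning, extraembryonic groups of these days had 76.7% (preTE_E5), 76.0% (TE_E6), 93.15% (Hypoblast_E7), 100% (TE_E7), 44.4% (Hypoblast_E10) and 43.75% (TE_E10). After thinning they had 76.0%, 54.2%, 59.7%, 92.3%, 17.4% and 33.3%. The share of preTE_E5 lay below that of preICM_E5 both times, and that of Hypoblast_E7 below Epiblast_E7 after thinning. In pgEpiSC the shares before thinning were 0 of 93 cells in low and 8.33% in high. There, 54.8% and 29.2% of cells had no count of any factor, against 8.25% in Epiblast_E10. In the thinned cells those last shares were 69.1% and 50.0%, against 33.0%.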

How the data were processed

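The deposited counts are raw counts per gene and cell made by the authors. Sscrofa11.1, UMI-tools, featureCounts 1.6.4 and STAR 2.7.1a are named, per the submitters' processing notes, without roles. The authors' group tables, deposited on a log2 scale, give the mean and SD over cells of log2(CPM/10 + 1). Their unit was recorded as other for the embryonic groups, which pool samples, and as log2 for pgEpiSC. Both statements rest on recomputing them: cells were assigned to groups by least squares on the deposited means, and at least 93.03% of a group's means then lay within 0.001. In 46 genes name and value disagreed. TFCP2L1 was tied to its count row by value. No column of per-sample values was left unused. No doublets were removed, and all libraries share the same 96 cell barcodes.

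Counts were summed per group and library into 67 sums of 5 or more cells (for 4C, 2C and Zygote 2 or more, for Oocyte 1 or more). They were tested by quasi-likelihood F-tests of edgeR 4.0.16 (R 4.3.3), after filterByExpr and TMM, with common and trended dispersions, and p-values were adjusted by Benjamini-Hochberg over all genes (threshold 0.05). All 15 stage steps, 3 added comparisons and pgEpiSC shared a fit of 23182 genes, and 20 steps with too few libraries got no test. Library was a block in the 5 lineage comparisons. SEs are the absolute log2 change divided by the square root of F. Libraries ranging from 7415760 to 39405309 counts limit low genes, and the floor is 3 counts. DESeq2 1.42.0, its size factors, no filter, each library left out and the block were alternatives. Named were the 6 factors, the 5 genes of most similar pattern for each, and up to 4 called genes per list with the largest change. Some genes of similar pattern are not reported here. The members and lists were chosen with earlier results of these data known. The edgeR code was tested on simulated data. Other steps used Python 3.11.15, numpy 2.4.6, pandas 2.3.3, scipy 1.17.1 and matplotlib 3.10.9.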

Additional observations from a re-analysis of the deposited data

Results flagged for a closer look

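TE_E13, with 4 sums, was the only group large enough to look for a sample far from the others, and this was done for each of the 6 factors. For 3 of them the highest sum stood apart. ESRRB was at 10.2 CPM in P9 and at 0 in P10, P18 and P19. NR0B1 was at 0.596 CPM in P18, from 1 count, and at 0 in the other 3 sums. PRDM14 was at 0.426 CPM in P9, also from 1 count, and at 0 elsewhere. Chance flags about 1 in 20 groups of varied values, a rate that does not apply here: with the other 3 sums at 0, any count in the fourth stands apart.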

How the results depend on the processing

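Over all 24 comparisons edgeR called 23 changes of the factors, against 21 with DESeq2's size factors, 34 without the filter on low counts and 33 with DESeq2 as the test. No called change turned its direction. Over all genes the same settings gave 20120, 20091, 28737 and 36422 calls, so the rises without the filter and with DESeq2 were not particular to the factors. With DESeq2's size factors 4C against 2C had 0 calls in place of 1, and 8C against 4C lost TFCP2L1 (3.95, edgeR adjusted p = 0.0519). Without the filter, calls went to 3 for 4C against 2C, 2 for Epiblast_E7 against ICM_E6, 1 for Epiblast_E8 against Epiblast_E7, 2 for TE_E6 against preTE_E5, 1 each for TE_E8 against TE_E7, TE_E10 against TE_E8 and ICM against TE, and 4 for Epiblast_E10 against Epiblast_E7. DESeq2 called 2 for 4C against 2C, 5 for 8C against 4C, 2 for Epiblast_E7 against ICM_E6, 3 for Epiblast_E10 against Epiblast_E7, 5 for Epiblast against TE, and 1 each for TE_E7 against TE_E6, TE_E8 against TE_E7, TE_E10 against TE_E8 and ICM against TE. In each comparison named for no filter or for DESeq2, more of all genes were called as well.

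Leaving out 1 library at a time gave 0 to 1 calls for 4C against 2C, 0 to 4 for 8C against 4C, 0 to 1 for Ectoderm_E11 against Epiblast_E10, 0 to 1 for TE_E6 against preTE_E5, 2 for Epiblast against TE in each case, 1 to 2 for Epiblast_E10 against Epiblast_E7, 0 for Hypoblast_E10 against Hypoblast_E7 and 1 to 2 for TE_E13 against TE_E8. With a library or replicate block, where 5 steps allowed one, Ectoderm_E11 against Epiblast_E10 had 0 calls in place of 1, and without the replicate block Epiblast against TE had 2 in place of 4. Fewer of all genes passed in most of these fits too, and many of them left a single sum in a group. The cause of these differences was not tested. A group left with a single sum was assumed to vary like the other groups. Of the values recomputed, 949 kept their side of the threshold, 35 lost it and 22 gained it. Depth limits the low factors most: NR0B1 and PRDM14 rest on 1079 and 2668 counts in all 1647 cells.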

Other observations

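PRDM14 was also seen where few cells carried it. In Endoderm_E11 it was at 12.2 CPM, with counts in 2 of 13 cells, and in Hypoblast_E7 at 4.16 CPM in P9 (12 of 35 cells) against 0.494 in P8 (4 of 38 cells). TBX3 and NR5A2 were each present in all 6 Zygote cells, at 51.5 CPM, and TBX3 was at 26.7 CPM in the Oocyte and at 108 and 33.1 CPM in the 4C sums of P1 and P13.

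Family relatives of the factors, 11 genes of which 9 were tested in the steps, had at most 2 calls in a comparison. Of all genes, 11.8% passed from 4C to 8C and 30.4% from 8C to Morula_E4. The shares were 3.96% for TE_E13 against TE_E8, 10.4% for epiblast against trophectoderm and 3.79% for Epiblast_E10 against Epiblast_E7. ESRRA, a relative of ESRRB, rose by 1.42 ± 0.37 from 4C to 8C, and ESRRG fell by 2.78 ± 0.86 from 8C to Morula_E4. Both were opposite in direction to ESRRB, which fell by 6.03 ± 1.35 from 4C to 8C and rose by 7.87 ± 1.46 to Morula_E4. ESRRG was also lower in TE_E13 than in TE_E8, by -4.84 ± 0.90, and in epiblast than in trophectoderm, by -3.78 ± 0.92, directions that ESRRB shared. GRHL2, of the family of TFCP2L1, rose by 4.30 ± 1.21 between Epiblast_E7 and Epiblast_E10.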
